A study of Mus musculus with 6 samples.

Results

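The miR-200 family was examined in liver tissue from 3 *Apcfl/fl* mice and 3 *Apc+/+* controls. The family consists of 5 miRNAs, mmu-miR-200a, mmu-miR-200b, mmu-miR-200c, mmu-miR-141 and mmu-miR-429, and its members were taken by name, as the guide-strand probes of these miRNAs. They are 5 of the 566 mouse miRNAs on a panel of 599 probes, and 0 probes on the panel were for their passenger strands. The *Apcfl/fl* mice are homozygous for a hypomorphic *Apc* allele, a model of hepatocarcinoma (HCC) with active Wnt/β-catenin signalling, and their livers are labelled HCC, while the *Apc+/+* livers are labelled healthy. Both groups were on the C57Bl/6 background, no Cre or treatment is named for these livers, and age, sex and how much of each piece was tumour are not given in the sources used here. RNA came from frozen liver tissue with all its cell types, so that fewer cells of a type and less RNA per cell cannot be told apart. MiRNAs were counted with the NanoString assay, which captures each one with a colour-coded probe and counts the captured molecules without amplification.

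The miR-200 family is a hallmark of epithelial cells. Its members bind the mRNAs of the transcription factors Zeb1 and Zeb2, repressors of E-cadherin that in turn repress the miR-200 genes, and this loop holds cells in an epithelial or a mesenchymal state. In the liver the family is known mainly from the bile duct epithelium, while hepatocytes are epithelial cells whose miRNA content is dominated by miR-122. The family is transcribed from 2 loci, and each transcript carries members with either of 2 seeds, the bases through which a miRNA pairs with its targets.

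The 5 mature guide strands are shown because seed and locus group them differently. All 5 probes matched a mature miRNA of RefSeq (assembly GRCm38.p6), each on the 3p arm of its hairpin. The sequences read 5′ to 3′, and the capitals mark the seed (bases 2 to 8).
mmu-miR-200b: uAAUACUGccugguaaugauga
mmu-miR-200a: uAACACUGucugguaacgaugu
mmu-miR-429: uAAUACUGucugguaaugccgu
mmu-miR-200c: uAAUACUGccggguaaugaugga
mmu-miR-141: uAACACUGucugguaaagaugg

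The seed AAUACUG is shared by mmu-miR-200b, mmu-miR-429 and mmu-miR-200c, and the seed AACACUG by mmu-miR-200a and mmu-miR-141. No other of the 1679 mature miRNA names in the table has either seed (3 names with the first and 2 with the second). The seeds differ at a single base, written U4C from mmu-miR-200b to mmu-miR-200a with positions counted from the 5′ end. Over the first 22 bases, 15 positions were identical in all 5 members. The closest pairs were mmu-miR-200b with mmu-miR-200c (U11G and A22G, with 1 extra base in mmu-miR-200c) and mmu-miR-200a with mmu-miR-141 (C17A and U22G), each identical at 20 of 22 positions. Counts of different probes are compared below as counts, not as numbers of molecules.

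The genes lie on the minus strand of 2 chromosomes in RefSeq. On chromosome 4 the order is Mir200b, Mir200a, Mir429, with 695 and 908 bases between the hairpins, a stretch of 1846 bases that overlaps the gene model Gm13648 and lies near Ttll10. On chromosome 6 Mir200c is followed after 336 bases by Mir141, a stretch of 477 bases near Phb2 and Ptpn6. The members of a locus thus come from neighbouring hairpins and are not independent observations.

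Detection was judged in each liver against the 33 probes for miRNAs of mouse viruses, whose targets these mice are not known to carry. The limit, set at 2 SD above the mean of these probes, was 20, 23.3 and 14.3 counts for *Apc+/+* livers 1 to 3 and 27.8, 13.1 and 19.2 counts for *Apcfl/fl* livers 1 to 3. Of the 30 values of the family (5 members in 6 livers), 12 were above the limit, all of them from the chromosome 4 locus. Between 24.7% and 35.7% of the 566 mouse miRNAs were above it per liver, as were 0 or 1 of the 33 viral probes.

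The most abundant member, mmu-miR-200a, is the chromosome 4 member with the AACACUG seed. Its deposited counts were 19.33, 40.33 and 29.33 in *Apc+/+* livers 1 to 3, beside 31.33, 75.33 and 47.33 in *Apcfl/fl* livers 1 to 3. It was above the limit in every liver except *Apc+/+* liver 1, where it missed it by less than 1 count, and in *Apcfl/fl* liver 1 it passed narrowly, at 1.13 times the limit. In *Apcfl/fl* liver 2, the liver with the lowest limit, it stood at 5.75 times the limit. Even so it was a minor miRNA, ranking between 99 and 145 of the 566 mouse miRNAs by count and taking 0.022% to 0.0732% of the mouse miRNA counts.

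The neighbour of mmu-miR-200a, mmu-miR-200b, which carries the other seed, followed the same order of livers within each genotype. Its counts, in the order of livers 1 to 3 as for all values below, were 15.33, 27.33 and 21.33 in *Apc+/+* liver, beside 17.33, 54.33 and 39.33 in *Apcfl/fl* liver. It was above the limit in 2 of 3 livers of each genotype and under it in liver 1 of both, where 6 of the 33 viral probes read as high or higher. The last member of this locus, mmu-miR-429, has the same seed as mmu-miR-200b. Its counts were 7.67, 21.67 and 15.67 in *Apc+/+* liver, beside 12.67, 55.67 and 36.67 in *Apcfl/fl* liver. It was above the limit in 1 *Apc+/+* liver (liver 3, at 1.09 times the limit) and in 2 *Apcfl/fl* livers (livers 2 and 3, at 4.25 and 1.91 times).

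The 2 members of the chromosome 6 locus were not detected above the limit in any of the 6 livers. The counts of mmu-miR-200c were 5.67, 17.67 and 7.67 in *Apc+/+* liver, beside 9.67, 10.67 and 5.67 in *Apcfl/fl* liver, and between 3 and 20 of the 33 viral probes read as high or higher in the same liver. Its highest count, in *Apc+/+* liver 2, was 0.759 times the limit there, and its closest approach was 0.815 times, in *Apcfl/fl* liver 2. The counts of mmu-miR-141 were 10.33, 8.33 and 1 in *Apc+/+* liver, beside 9.33, 5.33 and 13.33 in *Apcfl/fl* liver, where the value of 1 is the floor of the table. In *Apcfl/fl* liver 2, where mmu-miR-200a had 75.33 counts, the probe for its near-identical relative mmu-miR-141 read 5.33, and the probe for mmu-miR-200c read 10.67 beside 54.33 for mmu-miR-200b. A difference in these 2 miRNAs was not detectable at this depth.

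**Figure D1:**
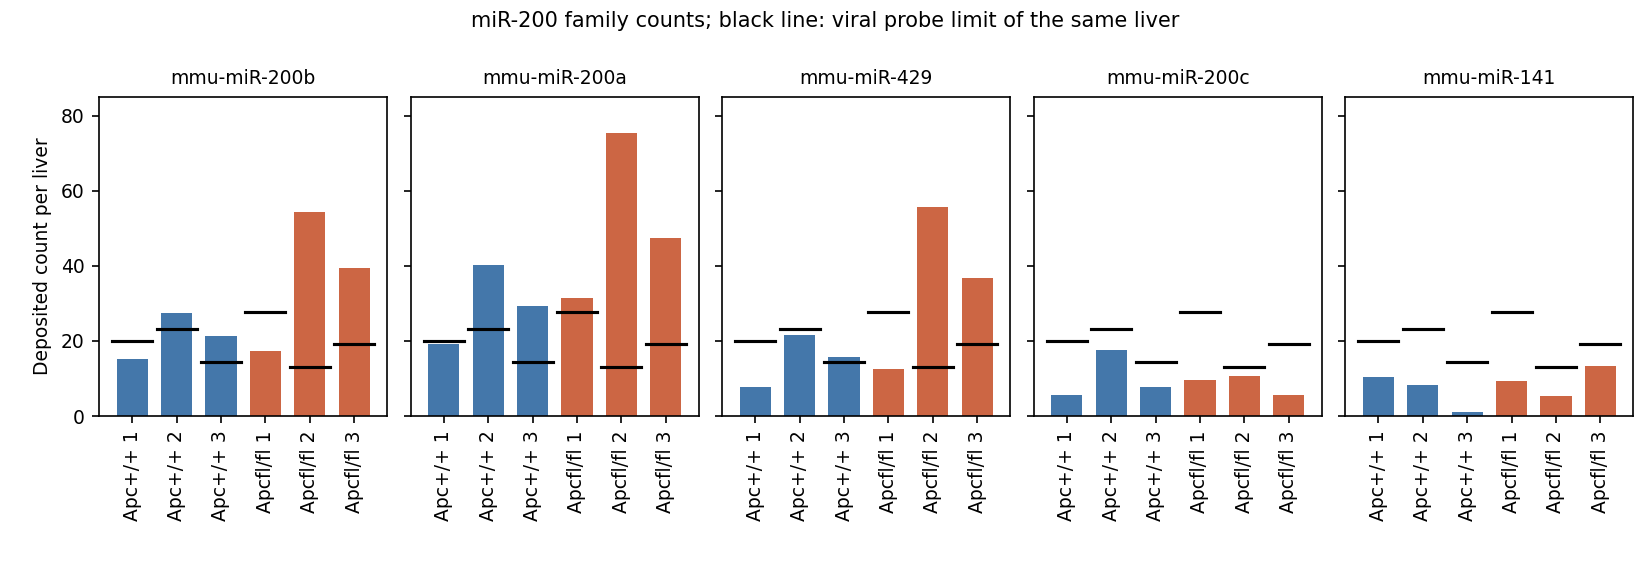
Deposited count of each miR-200 family member (vertical axis, counts) in the 3 *Apc+/+* livers (blue bars) and the 3 *Apcfl/fl* livers (orange bars), with the viral probe limit of each liver as a black line. The 3 chromosome 4 members pass the line in 12 of their 18 values and are highest in *Apcfl/fl* liver 2, while mmu-miR-200c and mmu-miR-141 stay under it in all 6 livers.

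By mean count over the 6 livers, from which the order was taken, the members ran mmu-miR-200a (40.5), mmu-miR-200b (29.2), mmu-miR-429 (25), mmu-miR-200c (9.5) and mmu-miR-141 (7.94). The neighbours in this order are described without a test, since the same counts set the order and the probes differ. The count of mmu-miR-200a was above that of mmu-miR-200b in 6 of 6 livers, by 0.49 ± 0.21 on the log2 scale (SD, n = 6), more than the spread. That of mmu-miR-200b was above mmu-miR-429 in 5 of 6 livers, by 0.38 ± 0.36, about as much as the spread. That of mmu-miR-429 was above mmu-miR-200c in 6 of 6 livers. No size is given, because mmu-miR-200c was under the limit in all 6 livers and mmu-miR-429 in 3. The 2 lowest members were both under the limit in all 6 livers, so no difference is given between them (mmu-miR-200c read higher in 4 of 6).

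To ask whether the family differs between tumour-bearing and normal liver, counts were normalized with edgeR's TMM factors and compared with its quasi-likelihood test over the mouse miRNAs that averaged 20 counts or more. This test covered 174 miRNAs and 3 of the 5 members, mmu-miR-200a, mmu-miR-200b and mmu-miR-429. None of the 3 differed between the genotypes at an adjusted p-value under 0.05. The same was so for all 174 miRNAs (0% higher and 0% lower in edgeR's test), the smallest adjusted p being 0.0559. Before adjustment, 24 miRNAs passed 0.05 as higher (13.8% of those tested) and 19 lower, with 0 of the 3 members among either. In 0 of the 3 did the genotypes separate without overlap towards higher counts, against 14.9%. With DESeq2 in place of edgeR, 20 miRNAs were higher and 9 lower after adjustment, and none of them was a member of the family.

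In normalized counts mmu-miR-200a was at 23.7, 48.1 and 35 in *Apc+/+* livers 1 to 3, beside 27.4, 77.5 and 30.2 in *Apcfl/fl* livers 1 to 3. Livers 1 and 3 of the *Apcfl/fl* mice fell inside the range of the *Apc+/+* livers and liver 2 lay above it. The group values were 35.6 ± 12.2 and 45 ± 28.2 normalized counts (SD, n = 3), a log2 fold change of 0.34 (standard error 0.55, edgeR's adjusted p = 0.74, 95% interval -0.97 to 1.65, two-sided exact permutation test, p = 0.8). As a ratio the interval runs from 0.51-fold to 3.14-fold.

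For mmu-miR-200b the normalized counts were 18.8, 32.6 and 25.4 in *Apc+/+* liver, beside 15.1, 55.9 and 25.1 in *Apcfl/fl* liver. The lowest and the highest of the 6 values were thus both from *Apcfl/fl* livers. Its group values were 25.6 ± 6.9 and 32 ± 21.2 (SD, n = 3), with a log2 fold change of 0.33 (standard error 0.58, edgeR's adjusted p = 0.76, 95% interval -1.06 to 1.71, two-sided exact permutation test, p = 0.9).

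The miRNA mmu-miR-429 averaged 15 deposited counts in *Apc+/+* and 35 in *Apcfl/fl* liver, so that it reached the count minimum of 20 only through the group where it was high. Its values were 9.4, 25.8 and 18.7 normalized counts in *Apc+/+* liver, beside 11.1, 57.3 and 23.4 in *Apcfl/fl* liver. Here too 2 of the 3 *Apcfl/fl* livers lay within the *Apc+/+* range. The group values were 18 ± 8.24 and 30.6 ± 23.9 (SD, n = 3), a log2 fold change of 0.74 (standard error 0.7, edgeR's adjusted p = 0.56, 95% interval -0.92 to 2.4, two-sided exact permutation test, p = 0.5). Fitted values were above 0 for 50.6% of the 174 tested miRNAs, with a median of 0.01 (quartiles -0.43 and 0.62). Nothing is read from the common sign of the 3 tested members, since they share a locus and mmu-miR-429 was tested through its high group.

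**Figure D2:**
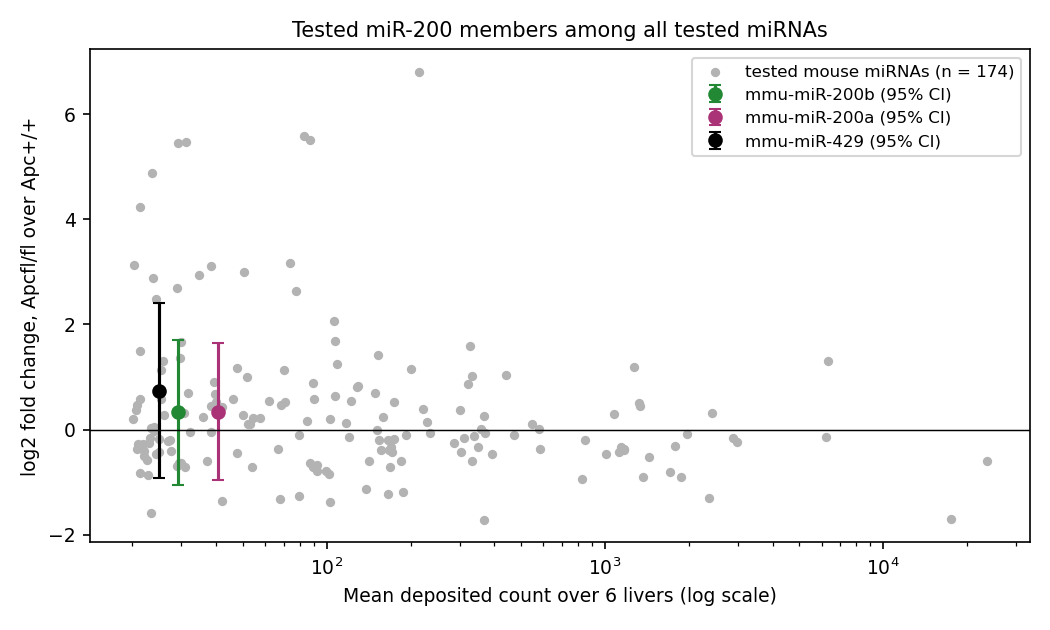
Log2 fold change in *Apcfl/fl* over *Apc+/+* liver (vertical axis) against the mean deposited count over 6 livers (horizontal axis, log scale) for the 174 tested mouse miRNAs (grey), with the 3 tested members in colour and bars for their 95% confidence intervals. All 3 intervals cross 0, and the members lie in the lower part of the range of counts.

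The pair under the count minimum was compared by its counts alone, and no fold change is given because all values were under the limit. In normalized counts mmu-miR-200c was at 12.4 ± 7.6 in *Apc+/+* and 7.68 ± 3.74 in *Apcfl/fl* liver (SD, n = 3; two-sided exact permutation test, p = 0.5). The miRNA mmu-miR-141 was at 7.93 ± 5.99 and 7.38 ± 1.65 (SD, n = 3; two-sided exact permutation test, p = 1). With 3 mice against 3, such a test cannot go below 0.1.

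With TMM factors, the sign of the difference at the chromosome 4 locus rested on 1 mouse. *Apcfl/fl* liver 2 was at 2.69, 2.78 and 3.32 times the mean of the other 2 *Apcfl/fl* livers for mmu-miR-200a, mmu-miR-200b and mmu-miR-429, and at 1.61 to 2.22 times the highest *Apc+/+* liver. Without *Apcfl/fl* liver 2 the log2 fold change became -0.25 for mmu-miR-200a and -0.28 for mmu-miR-200b (adjusted p = 0.8 and 0.78 in edgeR's test), and mmu-miR-429 fell under the count minimum. With the 174 miRNAs kept, an alternative chosen after the data were seen, the 3 members were at -0.3, -0.33 and -0.06. The sign did not turn when the total count was used as library size in this comparison, also an alternative chosen after the data were seen. They were then at 0.21, 0.18 and 0.47 (adjusted p = 0.91, 0.94 and 0.77 in edgeR's test), where the median over all 174 miRNAs was 0.52. As shares of the mouse miRNA counts, the summed locus took 0.051%, 0.096% and 0.0497% in *Apc+/+* liver, beside 0.0636%, 0.18% and 0.093% in *Apcfl/fl* liver. The spread between the *Apcfl/fl* mice was wider than between the *Apc+/+* mice, a difference that was not tested, with a coefficient of variation of 62.6%, 66.3% and 78.2% for the 3 members, against 34.3%, 26.9% and 45.8% in the *Apc+/+* mice. Much of this spread came from *Apcfl/fl* liver 2. Livers 1 and 3 were at 27.4 and 30.2 normalized counts for mmu-miR-200a, 15.1 and 25.1 for mmu-miR-200b, and 11.1 and 23.4 for mmu-miR-429.

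**Figure D3:**
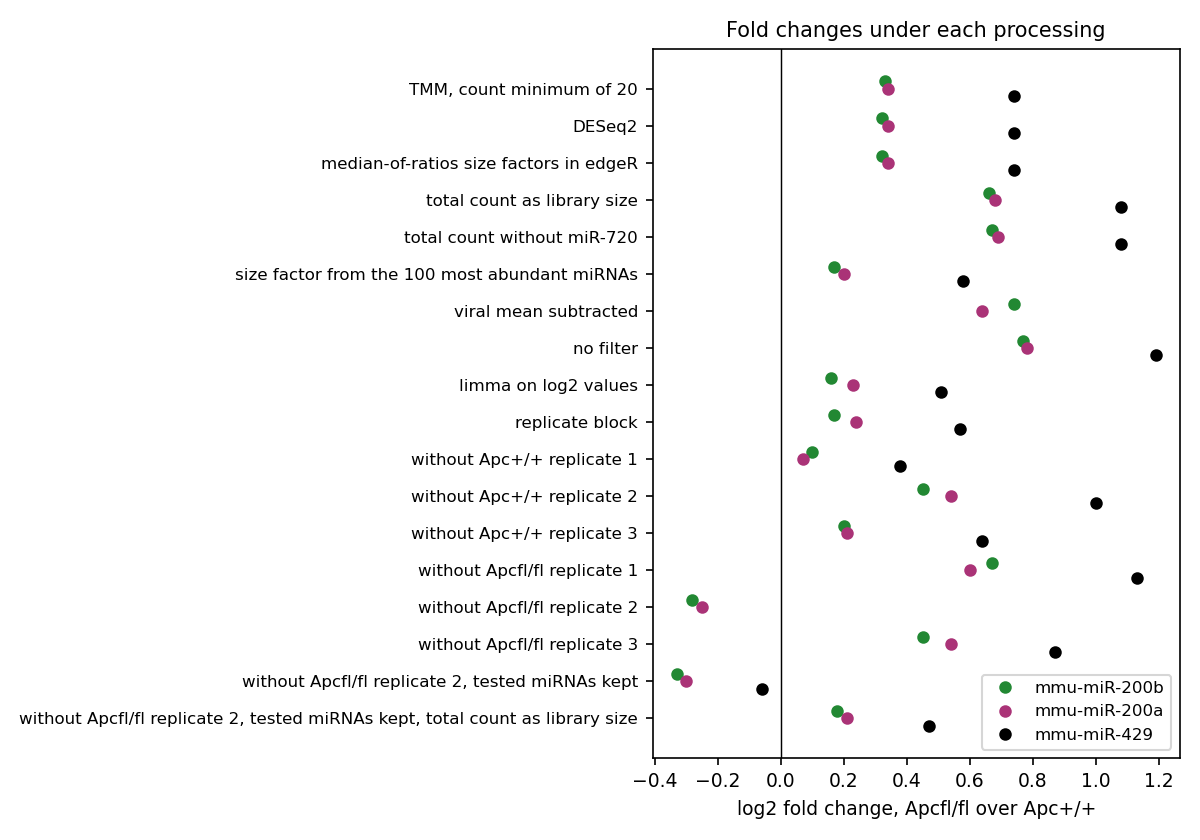
Log2 fold change in *Apcfl/fl* over *Apc+/+* liver (horizontal axis) of the 3 tested members under each processing (vertical axis), 1 point for each member that could be tested. Points lie right of 0 under every setting shown except the 2 that leave out *Apcfl/fl* replicate 2 with TMM factors, where they lie between -0.33 and -0.06. Without that replicate but with the total count as library size they lie between 0.18 and 0.47. The median over the 174 tested miRNAs was then 0.52.

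The 3 members of the chromosome 4 locus went up and down together. Over the 6 livers their normalized log2 counts correlated with r = 0.95 (mmu-miR-200a with mmu-miR-200b), 0.94 (mmu-miR-200a with mmu-miR-429) and 0.96 (mmu-miR-200b with mmu-miR-429). Their Spearman values were 0.94, 0.94 and 0.89. The other pair of 1 locus, mmu-miR-200c with mmu-miR-141, gave r = -0.04. Of the pairs that share a seed across the loci, mmu-miR-200a with mmu-miR-141 gave -0.24, and mmu-miR-200c gave 0.39 with mmu-miR-200b and 0.29 with mmu-miR-429 (Spearman 0.71 and 0.6). The highest value across the loci was that of mmu-miR-200a with mmu-miR-200c, which do not share a seed (r = 0.55, Spearman 0.77). Differences between these correlations were not tested. These are descriptions over 6 livers that share library depth and scaling, and the chromosome 6 probes vary within background.

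The ratio of mmu-miR-200b to mmu-miR-200a by count was 0.793, 0.678 and 0.727 in *Apc+/+* liver, beside 0.553, 0.721 and 0.831 in *Apcfl/fl* liver. The log2 ratio differed by -0.08 between the genotypes (two-sided exact permutation test, p = 0.8). For mmu-miR-429 over mmu-miR-200a the ratios were 0.397, 0.537 and 0.534 in *Apc+/+* liver, beside 0.404, 0.739 and 0.775 in *Apcfl/fl* liver. The lowest ratio of each genotype was in liver 1. The miRNA mmu-miR-429 was under the limit in both of these livers and also in *Apc+/+* liver 2, which had the highest ratio of its genotype. The log2 difference was 0.34 (exact permutation test, p = 0.3, adjusted p = 0.45 over 3 ratios), and that of mmu-miR-429 over mmu-miR-200b was 0.42 (exact permutation test, p = 0.3, adjusted p = 0.45).

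Summed by locus, the chromosome 4 members had 51.9, 107 and 79.1 normalized counts in *Apc+/+* livers 1 to 3, beside 53.6, 191 and 78.7 in *Apcfl/fl* livers 1 to 3. The chromosome 6 pair had 19.6, 31 and 10.3 against 16.6, 16.5 and 12.1. The first locus held 72.6% to 88.4% of the family's counts in *Apc+/+* and 76.3% to 92.1% in *Apcfl/fl* liver before any background was removed. With the viral mean of each liver taken off every probe (values below it set to 0), these shares were 89.6%, 89.7% and 96.1% in *Apc+/+* liver, beside 100%, 96.5% and 94.6% in *Apcfl/fl* liver. Summed by seed, the AAUACUG group had 35.1, 79.5 and 53.3 normalized counts in *Apc+/+* liver, beside 34.7, 124 and 52.1 in *Apcfl/fl* liver. The AACACUG group had 36.4, 58 and 36.2 against 35.5, 83 and 38.7. By seed the split was 55.5% ± 5.56 of the family's counts in the AAUACUG group in *Apc+/+* and 55.6% ± 5.48 in *Apcfl/fl* liver (SD, n = 3). After the same subtraction it was 47.3% ± 10.7 and 49.5% ± 15.7, from 35%, 53% and 53.9% against 31.5%, 59.9% and 57.2%. The whole family took 0.0703%, 0.124% and 0.0563% of the mouse miRNA counts in *Apc+/+* liver, beside 0.0833%, 0.196% and 0.107% in *Apcfl/fl* liver. Of these counts, 5 probes at the viral mean would make up 70.3%, 49.1% and 37.7% in *Apc+/+* liver, beside 63%, 12.2% and 26.8% in *Apcfl/fl* liver, so the shares include a background that differs by liver. Whether the 2 loci respond differently to the genotype was not tested, since the chromosome 6 pair lay under the limit.

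**Figure D4:**
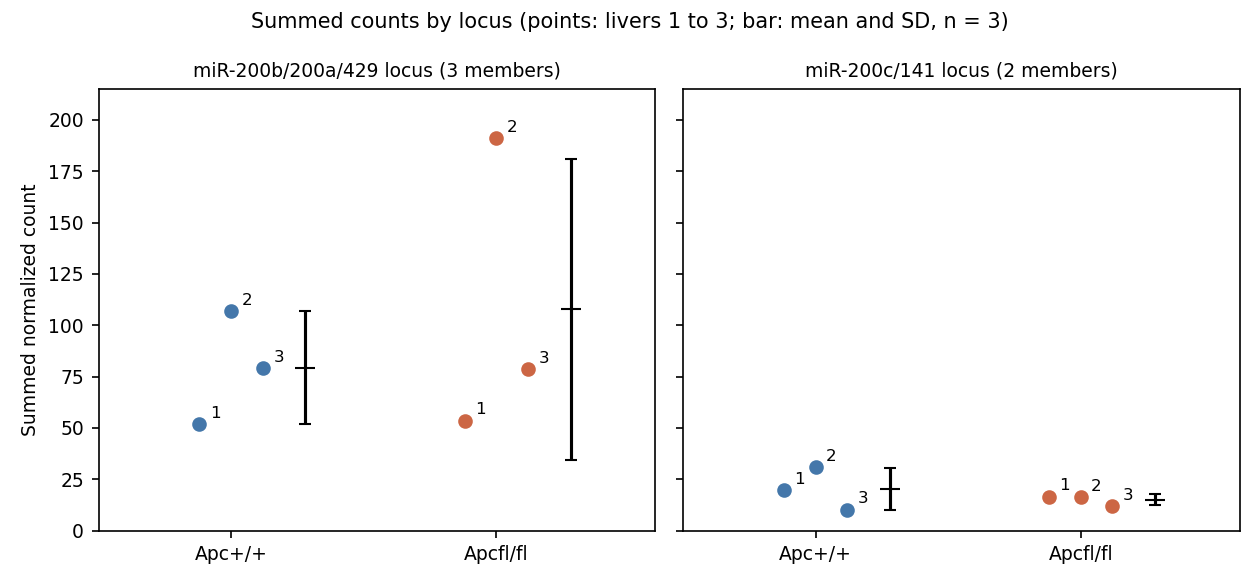
Summed normalized count (vertical axis) of the chromosome 4 members (left) and of the chromosome 6 members (right) in each liver (points numbered by liver, blue *Apc+/+*, orange *Apcfl/fl*), with the mean and SD of 3 livers in black. At the chromosome 4 locus the *Apcfl/fl* livers span 53.6 to 191 and the *Apc+/+* livers 51.9 to 107. Only *Apcfl/fl* liver 2 lies above the *Apc+/+* range. The chromosome 6 pair stays between 10.3 and 31.

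The tested miRNAs most like mmu-miR-200a over the 6 livers, by the correlation of normalized log2 counts among 173 others, were mmu-miR-200b (r = 0.95), mmu-miR-429 (0.94), mmu-miR-486 (0.93), mmu-miR-495 (0.84) and mmu-miR-376a (0.84). The median over the 173 was 0.07, and 3 of them reached 0.9. MiR-486 is a miRNA of red blood cells, and its normalized count of 100 in *Apcfl/fl* liver 2 compares with a group mean of 32.8 ± 13.7 in *Apc+/+* liver (SD, n = 3). Other erythroid miRNAs were also highest in this liver, with 616 deposited counts of miR-144 against 173 to 335 in the other 5 livers and 3593 of miR-451 against 495 to 1452. The white blood cell miRNAs miR-142-3p, miR-150 and miR-223 were not. They had 70, 70.33 and 147 deposited counts in this liver, against 283, 169.33 and 459 in *Apcfl/fl* liver 3. MiR-495 and miR-376a belong to the imprinted Dlk1-Dio3 cluster and had 376 and 174 normalized counts in *Apcfl/fl* liver 2. Their deposited counts averaged 73.7 and 29.1 over the 6 livers. Most of these counts came from *Apcfl/fl* liver 2, and both miRNAs reached the count minimum of 20 only through it. Their correlations without this liver were not computed. The part of blood or of any other cell type in the high miR-200 counts of this liver was not tested.

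Markers of other cell types were set beside the family, as lists written from general knowledge. Of 7 epithelial miRNAs outside the family, 4 were tested, and 0 had a fitted value above 0, with a median log2 fold change of -0.82. In 6 of 14 other edgeR fits at least 1 was above 0, and after subtraction of the viral mean, where 2 were tested, the median was -0.19. In this list 2 were lower at an unadjusted p-value under 0.05, against 10.9% of all tested miRNAs. They were miR-203, a miRNA of differentiating epidermis, with 128 ± 23.2 and 73.7 ± 12.7 normalized counts (SD, n = 3, log2 fold change -0.79, adjusted p = 0.15 in edgeR's test), and miR-31 with 38.1 ± 11.6 and 12.5 ± 6.55 (log2 fold change -1.6, adjusted p = 0.12), which was under the limit in all 3 *Apcfl/fl* livers and, at 27, 43 and 25 deposited counts beside 23, 9 and 13, reached the count minimum only through the *Apc+/+* group. With the total count as library size the median was -0.51 and 0 of the 4 were lower before adjustment. MiR-205, which also targets Zeb1 and Zeb2, was at 27.67, 33.67 and 18.67 deposited counts in *Apc+/+* liver, beside 13.67, 35.67 and 7.67 in *Apcfl/fl* liver (log2 fold change -0.86, adjusted p = 0.49), and it too reached the minimum only through the *Apc+/+* group. Nothing is read from the count, common sign or median of this list, since miR-31 and miR-205 were tested through their high group. MiR-96 was at 32.2 ± 9.06 and 31.3 ± 4.2 normalized counts (log2 fold change -0.05, adjusted p = 0.95), and miR-182, miR-183 and miR-375 were under the limit in all 6 livers.

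Among the 5 hepatocyte miRNAs all 5 were tested, 4 of them lower at an unadjusted and 0 at an adjusted p-value under 0.05 in edgeR's test, with a median log2 fold change of -0.8. Of all tested miRNAs 10.9% were lower before adjustment, and with the total count as library size 1 of the 5 was, with a median of -0.43. After adjustment 1 hepatocyte miRNA was called in 9 of 14 other edgeR fits, the total count among them, and 2 were with DESeq2. Their summed level ran from 24100 to 38600 normalized counts in *Apc+/+* and from 8020 to 13700 in *Apcfl/fl* liver, most of it miR-122. The log2 fold change was -1.71 for miR-122, -0.52 for miR-194, -0.39 for miR-192 and -0.8 for miR-101a (adjusted p = 0.056, 0.15, 0.23 and 0.16 in edgeR's test). Of the mesenchymal miRNAs, 4 of 5 with a probe were tested, 2 of them lower before adjustment (miR-143 and miR-145, of smooth muscle and fibroblasts), with summed levels of 868 to 1280 against 313 to 704 and a median of -0.92. The log2 fold change was -1.72 for miR-145, -1.13 for miR-143 and -0.18 for miR-199a-3p (adjusted p = 0.056, 0.087 and 0.8 in edgeR's test), and the genotypes overlapped for miR-199a-3p. After adjustment 0 were lower in edgeR's test, 1 or 2 in 8 of its 14 other fits and 2 with DESeq2, and with the total count as library size the median was -0.49, 1 of the 4 was lower before adjustment and 1 had a fitted value above 0. The 2 endothelial miRNAs summed to 3480 to 3700 against 2680 to 3450, with 0 lower before adjustment and a median of -0.34, which turned to 0.06 with the total count as library size. They were miR-126-3p at -0.23 and miR-126-5p at -0.46 (adjusted p = 0.46 and 0.23 in edgeR's test). Of 7 blood cell miRNAs 6 were tested, with a median of 0.45 and 1 higher before adjustment (miR-223 of myeloid cells), beside 13.8% of all tested miRNAs, and their sum was 1150 to 1600 against 1010 to 4730. After adjustment 0 were higher in edgeR's test, 1 in 4 of its 14 other fits and 1 with DESeq2. With the total count as library size the median of the blood list was 0.79, with all 6 fitted values above 0, 2 higher before adjustment and 1 after. With TMM factors and without *Apcfl/fl* liver 2, the median of the blood list was -0.02 in place of 0.45. The 3 miRNAs of the pancreatic acinus, miR-216a, miR-216b and miR-217, were under the limit in all 6 livers, as were the 5 of brain and muscle apart from miR-1 in 1 *Apc+/+* liver. At this level the brain and muscle miRNAs summed to 48.5 to 73.5 normalized counts in *Apc+/+* and to less, 15.1 to 25.1, in *Apcfl/fl* liver. The sums of the pancreatic miRNAs overlapped, at 13.9 to 23.1 against 6.17 to 16.9. The mean of the viral probes was 10.1, 13.5 and 6.75 normalized counts in *Apc+/+* liver, beside 8.84, 5.05 and 4.87 in *Apcfl/fl* liver. The part of these shifts in the values of the miR-200 family was not tested.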

How the data were processed

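NanoString miRNA profiles of 3 *Apcfl/fl* and 3 *Apc+/+* mouse livers were used, grouped by their titles. The members and lists were chosen with earlier results of these data known. The authors deposited estimated counts per probe, described as not normalized. Values above 1 shared a single decimal part within a probe in 584 of 584 probes, and 446 of 3594 values were at the floor of 1. Such decimals would be left by a constant subtracted from each probe, which would shift low counts, the viral limits and the order of probes. Whether this was done, and the software, are not given in the sources used here. Totals were 82942 to 133331 mouse miRNA counts per liver, without viral probes, and 0 value columns lacked a sample. The values were not whole and were rounded for the fit.

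Mouse miRNAs averaging 20 counts or more were fitted over all 6 livers with edgeR 4.0.16 in R 4.3.3 (TMM, glmQLFit, glmQLFTest, Benjamini-Hochberg over 174), after the procedure was tested on simulated data. On drawn counts with 40 of 174 miRNAs changed, 3% of 2-fold and 56.5% of 4-fold changes were found, so most 2-fold changes would be missed. Of the calls made, 20% and 5.44% were false. These shares are over miRNAs of all count levels and were not taken for the members alone. Only 15.5% to 32.8% of the tested miRNAs had a lower mean count than the 3 tested members. Normalized counts are deposited counts divided by the effective library size relative to its geometric mean. Correlations and permutation tests of single members used log2 of the normalized count plus 2. Standard errors were derived from the fold change and the F statistic. The labels do not say whether the mice were related or handled together, and p-values measure the spread between these livers. Within a genotype no library repeated the counts of another, with a chi-square per degree of freedom of 17.2 to 89.1. This cannot tell repeat assays of the same mouse from different mice.

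The rule for names took the 5 members, the 5 tested miRNAs most correlated with the most abundant member, and from each marker list up to 4, the 2 most abundant tested and then those without overlap between genotypes. With 5 such hepatocyte miRNAs, the least abundant was left out. MiR-205, miR-182, miR-183, miR-375, miR-1 and the pancreatic miRNAs fall outside it and were named after their values were seen. Alternatives were DESeq2 1.42.0, limma 3.58.1, other scalings, count minimums and limits, subtraction of the viral mean, a replicate block and each liver left out.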

Additional observations from a re-analysis of the deposited data

How the results depend on the processing

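Over 17 alternatives for mmu-miR-200a and mmu-miR-200b and 15 for mmu-miR-429, none of the members reached an adjusted p-value under 0.05 (0.47 to 0.92, 0.48 to 0.94 and 0.33 to 0.95). Their log2 fold changes ran from -0.3 to 0.78, -0.33 to 0.77 and -0.06 to 1.19, and turned negative only without *Apcfl/fl* replicate 2 with TMM factors (-0.25 and -0.28 for mmu-miR-200a and mmu-miR-200b, and -0.3, -0.33 and -0.06 for the 3 members with the 174 miRNAs kept). With the total count as library size they stayed positive without it (0.21, 0.18 and 0.47), where the median over all 174 was 0.52. The last 2 fits were chosen after the data were seen. With 1 liver left out they were at most 0.6, 0.67 and 1.13, each without *Apcfl/fl* replicate 1. No value could be had for the members at a count minimum of 60, or for mmu-miR-429 after subtraction of the viral mean. With the total count as library size they were 0.68, 0.66 and 1.08, with a median over all 174 of 0.45 in place of 0.01 (0.4 without miR-720, and 0.25 after subtraction of the viral mean). The number of member values above the limit (12) was 9 with mean plus 3 SD, 11 with the highest viral probe and 12 with 20 counts.

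Livers of the same number did not deviate together (r = -0.06, -0.05 and 0.12), so the numbers were not taken as pairs, and with the replicate block the members were at 0.24, 0.17 and 0.57. MiRNAs with an adjusted p-value under 0.05 (0 higher, 0 lower in edgeR's test, with 24 and 19 before adjustment) numbered 20 and 9 with DESeq2, 1 and 3 with median-of-ratios factors, 16 and 1 with the total count, 18 and 3 without miR-720 in it, 1 and 3 with the factor from the top 100, 9 and 6 after subtraction of the viral mean, 12 and 6 at the count minimum of 60, 1 and 3 with limma, 4 and 3 with the replicate block, and 0 to 11 and 0 to 8 with 1 liver left out. Before adjustment the higher ones were 38, 41 and 54 with the total count, the total without miR-720 and no filter, and the lower ones 3, 4 and 29, with 12 after subtraction of the viral mean, 10 at the count minimum of 60 and 9 to 19 with 1 liver left out (9 without *Apc+/+* replicate 2, 12 without *Apcfl/fl* replicate 1). Those not overlapping on the higher side (26) were 41 with the total without miR-720 and 48 with no filter. The causes were not tested. Counts of 1 to 75 limit what can be seen of this family.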
